A study of Mus musculus with 2 samples.

Results

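Connexins are the subunits of gap junctions, and 7 of their genes were followed here in the optic nerve, chosen by name for the cells they are known from, by a rule that uses no measured value but was written with earlier results of these data known. They are *Gjb1* and *Gjc3* of oligodendrocytes (OLs), *Gja1* and *Gjb6* of astrocytes, *Gjb2* of the meninges, and *Gja4* and *Gjc1* of blood vessels. They are 7 of the 20 connexin genes and of the 23951 gene symbols that both libraries held. RNA-seq was carried out on optic nerves at P12 from control mice (Tcf7l2 c/+ with OLig1-cre, 1 library) and from *Tcf7l2*ΔHMG mutants (Tcf7l2 c/c with OLig1-cre, 1 library). Both groups carried the Cre transgene, which acts in the OL lineage, and the control had 1 floxed *Tcf7l2* allele, so neither group was wild type. Cre removes the exon for the DNA-binding HMG box and leaves a shortened transcript, so the level of *Tcf7l2* as a whole, 17.8 FPKM in the control against 14.6 FPKM in the mutant, does not check the deletion. The mice were of a mixed background and both sexes were used in the study, and the number of animals in each library was not stated.

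A ring of connexins forms a half-channel, and half-channels of neighbouring cells dock to form a gap junction that passes ions and small molecules. In white matter, astrocytes are coupled to each other and to OLs, and this network is known to take up potassium released by active axons. *Gjb1* encodes Cx32, which lies in the outer layers and loops of myelin and pairs with the astrocyte connexin Cx30, the product of *Gjb6*. *Gjc3* encodes Cx29, found along the inner face of the myelin sheath and not known to form coupled junctions there. *Gja1* encodes Cx43, the main astrocyte connexin, which the leptomeninges and vessel walls also make, and *Gjb2* encodes Cx26, typical of the leptomeninges together with Cx30. *Gja4* encodes Cx37 of arterial endothelium, and *Gjc1* encodes Cx45 of smooth muscle and pericytes.

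Levels are given in FPKM, fragments scaled to the length of the transcript and the depth of the library, with the confidence interval that Cufflinks gave for each value. FPKM is scaled to length, so levels can be compared between genes. Depth was estimated from the interval bounds of short unnamed transcripts at 27624000 fragments in the control against 39938000 in the mutant, at which 3 fragments on 1000 bases correspond to 0.109 and 0.0751 FPKM. Each genotype had 1 library, so the intervals cover sampling within a library only and variation between animals could not be estimated. The FPKM lay outside its own interval in 9.13% of 14199 tested genes in the control against 11.5% in the mutant. Differences are given as the log2 ratio of mutant to control FPKM after a pseudocount of 0.1 was added to both, which understates the change of low genes. The margin after each ratio combines the widths of both intervals. It is centred on the ratio of the FPKM values, also where an FPKM lies outside its own interval.

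All 7 genes passed the filter of 1 FPKM in at least 1 library. *Gjb2*, *Gjb6* and *Gja1* were higher in the mutant by a fold change above 1.5, *Gjc3* and *Gja4* were lower by as much, and *Gjb1* and *Gjc1* lay within it. Among all tested genes, 15.4% were higher and 8.52% lower by a fold change above 1.5. A fold change above 2 was reached by *Gjb2* alone, upward, beside 6.87% of all tested genes higher and 3.68% lower at that size. Separate intervals as well as a fold change above 1.5 were found for the same 3 higher and 2 lower members, and for 13.6% and 7.42% of all tested genes. The median log2 ratio of the 7 members was 0.02, beside 0.05 over all tested genes. The members ranged from −0.91 for *Gja4* to 1.14 for *Gjb2*, and the 5th and 95th percentiles of all tested genes were −0.83 and 1.18. The plot of levels shows which pairs of intervals are separate.

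**Figure D1:**
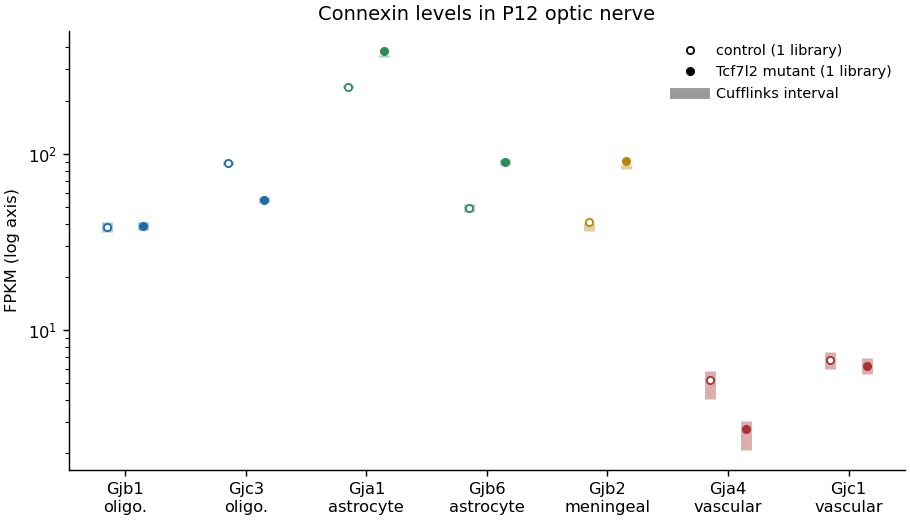
FPKM on a log axis of the 7 connexins in the control (open points) and *Tcf7l2* mutant (filled points) library, with bars for the Cufflinks intervals. The intervals of *Gjb1* and of *Gjc1* overlap between libraries, and those of the other genes do not.

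In the control, *Gja1* was the highest of the 7 at 237.2 FPKM, followed by *Gjc3* at 87.9 and *Gjb6* at 49.3 FPKM. *Gjb2* at 41.1 and *Gjb1* at 38.5 FPKM came next, with overlapping intervals of 36.4 to 40.5 and 36.1 to 41.0, so their order was not resolved. *Gjc1* at 6.75 and *Gja4* at 5.23 FPKM were lowest, and their intervals did not overlap. In the mutant the order was *Gja1* at 381.1, *Gjb2* at 90.6, *Gjb6* at 89.3, *Gjc3* at 54.2 and *Gjb1* at 39.0 FPKM. *Gjb2* and *Gjb6* cannot be ordered there, because the FPKM of *Gjb2* lay above its own interval of 81.4 to 86.1 while that of *Gjb6* ran from 86.5 to 93.1. *Gjc1* and *Gja4* were again lowest, at 6.25 and 2.74 FPKM.

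*Gjb1* and *Gjc3*, the OL genes of the set, did not share a direction. *Gjc3* was measured at 87.9 FPKM in the control (interval 86.3 to 91.3) and 54.2 FPKM in the mutant (53.0 to 56.6). The mutant library was lower and the intervals did not overlap, with a log2 ratio of −0.70 ± 0.06, below which 6.42% of tested genes lay. *Gjb1* was measured at 38.5 FPKM in the control (36.1 to 41.0) and 39.0 FPKM in the mutant (37.0 to 41.1). The libraries could not be separated for *Gjb1*, whose log2 ratio of 0.02 ± 0.12 lay inside a fold change of 1.5 in both directions as far as counting error goes. Within a library, *Gjc3* exceeded *Gjb1* by 2.28 times in the control and by 1.39 times in the mutant, a difference of 0.71 ± 0.14 on the log2 scale that no scaling of the libraries can alter. The files place *Gjb1* on chromosome X from 98572676 to 98581313 and *Gjc3* on chromosome 5 from 138394059 to 138404333 in the control, in mm9, the build in the submitters' processing notes. The outer bounds of *Gjc3* differed between libraries, with 138395037 to 138404187 in the mutant.

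All 10 OL marker genes were lower in the mutant, with log2 ratios from −2.04 to −0.36, a median of −1.07 and a summed level of 15021 FPKM in the control against 6651 FPKM in the mutant, and 8 of the 10 passed a fold change of 1.5. Among them *Mobp*, a myelin protein gene, was at 2959 and 719 FPKM, and *Cnp*, which encodes an enzyme of myelin, at 2318 and 1320 FPKM. *Gjb1* had a higher ratio than all 10 markers and *Gjc3* a higher ratio than 8 of them, and the margins overlapped with those of 1 and 2 markers. OL precursor markers were nearer to 0, with a median log2 ratio of −0.27 over 8 genes and 3 lower by a fold change above 1.5 (*Vcan*, *Gpr17* and *Neu4*). In bulk tissue, fewer cells of a type and less RNA per cell cannot be told apart, and this holds for every gene described here.

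To show what the starts of *Gjc3* and *Gjb1* look like, the 250 bases before a RefSeq start are printed for each. *Gjc3* was lower in the mutant. For *Gjb1*, which was not lower, the window is that of the last of 4 RefSeq starts. Coordinates are of GRCm38.p6, a later build than that of the expression files, and the sequences are on the strand of the gene. Capitals mark matches on either strand to the letters TCAAAG, the core of the Tcf7l2 motif, or to CTTTGT and CATTGT, Sox-type motifs, of which CTTTGT shares its first letters with the complement of TCAAAG.
Gjc3, chr5:137963099-137963348, minus strand: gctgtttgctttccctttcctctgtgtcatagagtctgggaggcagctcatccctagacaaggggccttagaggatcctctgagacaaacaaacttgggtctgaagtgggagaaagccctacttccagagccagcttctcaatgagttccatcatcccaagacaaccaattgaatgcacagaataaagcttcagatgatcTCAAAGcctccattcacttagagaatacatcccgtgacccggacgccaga
Gjb1, chrX:101383482-101383731, plus strand: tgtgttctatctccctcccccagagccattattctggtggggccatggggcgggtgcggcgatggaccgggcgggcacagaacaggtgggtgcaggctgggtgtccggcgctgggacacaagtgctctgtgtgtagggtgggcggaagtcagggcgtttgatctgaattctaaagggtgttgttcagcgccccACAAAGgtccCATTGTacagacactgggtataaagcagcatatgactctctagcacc
The *Gjc3* window held 1 match to TCAAAG, 50 bases before the start, and no Sox-type match. The printed *Gjb1* window held 2 Sox-type matches, 57 and 47 bases before the start, and no TCAAAG. A window at the first *Gjb1* start held 1 match of each kind and the other two held none. Over 32851 RefSeq windows of this length, 13.8% held TCAAAG and 25.2% held a Sox-type match, so a match is common and is given only as a description. RefSeq windows were at hand for 6 of the 7 genes.

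Both astrocyte connexins were higher in the mutant. *Gja1* was measured at 237.2 FPKM in the control (235.5 to 244.8) and 381.1 FPKM in the mutant, where the value lay above its own interval of 353.3 to 361.7. The intervals were separate by a wide margin and the log2 ratio was 0.68 ± 0.03. *Gjb6* was measured at 49.3 FPKM in the control (46.6 to 52.0) and 89.3 FPKM in the mutant (86.5 to 93.1), a log2 ratio of 0.86 ± 0.10. Among the 1420 tested genes of the highest mean level, 11.1% had a higher ratio than *Gja1* and 7.54% a higher ratio than *Gjb6*. *Gja1* exceeded *Gjb6* by 4.81 times in the control and by 4.27 times in the mutant, so their proportion was nearly kept, with a difference of −0.17 ± 0.10. That margin, too, is centred on the mutant FPKM of *Gja1* above its own interval. *Gja1* lies on chromosome 10 from 56097106 to 56110225 in mm9, and *Gjb6* on chromosome 14 from 57742138 to 57752448.

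None of 10 astrocyte marker genes passed a fold change of 1.5 in either direction. Their log2 ratios ran from −0.29 to 0.51 with a median of 0.25, and their summed level was 5250 FPKM in the control against 6042 FPKM in the mutant. *Gfap*, the astrocyte intermediate filament, was measured at 4059 and 4729 FPKM, and the glutamate transporter *Slc1a3* at 288.4 and 309.6 FPKM. Both *Gja1* and *Gjb6* had higher ratios than all 10 astrocyte markers, by 0.43 and 0.61 above their median. None of these margins overlapped. For *Gja1*, however, the margin is centred on a mutant FPKM above its own interval, so its separation from the highest astrocyte markers was not resolved. Beside 12 meningeal markers both connexins lay in the middle, *Gja1* above 5 and *Gjb6* above 7 of them, with overlapping margins for 2 and 3. The share of astrocytes and of meninges in the *Gja1* and *Gjb6* signal was not tested.

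*Gjb2* had the largest log2 ratio of the 7. It was measured at 41.1 FPKM in the control (36.4 to 40.5) and 90.6 FPKM in the mutant (81.4 to 86.1), and in both libraries the FPKM lay above its own interval. The mutant level was 2.20 times that of the control, with separate intervals and a log2 ratio of 1.14 ± 0.09, and 5.39% of tested genes had a higher one. All 12 meningeal markers were higher in the mutant, 8 by a fold change above 1.5, with a median log2 ratio of 0.75 and a range from 0.09 to 1.95. Their summed level was 7276 FPKM in the control against 14656 FPKM in the mutant, most of it from *Ptgds*, a prostaglandin synthase of the arachnoid that OLs also make, at 6009 and 12780 FPKM. The collagen genes *Col1a2* and *Col1a1* were at 334.8 and 258.9 FPKM in the control and 438.0 and 362.6 FPKM in the mutant. *Gjb2* had a higher ratio than 10 of the 12, with overlapping margins for 3, and no meningeal marker was at 0 in either library. How much meninges each nerve sample held was not measured, and its part in the *Gjb2* value was not tested.

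*Gjb2* and *Gjb6* are neighbours. In the control table *Gjb2* lies on chromosome 14 from 57717439 to 57723539 in mm9, 18598 bases from *Gjb6*, with no other named gene between them. The third gene of this cluster, *Gja3*, was under the filter at 0.13 and 0.18 FPKM, with overlapping intervals. *Gjb2* was below *Gjb6* in the control, and their order in the mutant was not resolved. The ratio of *Gjb2* to *Gjb6* differed between libraries by 0.28 ± 0.13 on the log2 scale. The 250 bases before the RefSeq start of these neighbours, both of which were higher in the mutant, are printed in the same way.
Gjb2, chr14:57104703-57104952, minus strand: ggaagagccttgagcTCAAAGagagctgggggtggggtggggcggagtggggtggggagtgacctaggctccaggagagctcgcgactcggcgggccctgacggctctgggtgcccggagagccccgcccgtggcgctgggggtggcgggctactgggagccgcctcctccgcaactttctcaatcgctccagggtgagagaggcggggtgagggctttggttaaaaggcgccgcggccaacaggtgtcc
Gjb6, chr14:57133612-57133861, minus strand: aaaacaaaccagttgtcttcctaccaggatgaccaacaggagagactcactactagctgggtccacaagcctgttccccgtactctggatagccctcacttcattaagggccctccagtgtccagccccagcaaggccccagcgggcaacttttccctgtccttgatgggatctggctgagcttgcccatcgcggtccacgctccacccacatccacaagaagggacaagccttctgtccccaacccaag
The *Gjb2* window held 1 match to TCAAAG, 235 bases before the start, and the *Gjb6* window held neither motif. Bases G and C made up 69.2% of the *Gjb2* window and 56.8% of the *Gjb6* window. The windows of *Gja1* and *Gja4* also held no match.

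The vascular connexins were the lowest of the set. *Gja4* was measured at 5.23 FPKM in the control (4.08 to 5.82) and 2.74 FPKM in the mutant (2.09 to 3.06). The mutant was lower by 1.91 times with separate intervals, and the log2 ratio was −0.91 ± 0.37, the widest margin of the 7. *Gjc1* was measured at 6.75 FPKM in the control (5.97 to 7.53) and 6.25 FPKM in the mutant (5.62 to 6.90). The intervals overlapped and a difference in *Gjc1* was not detectable at this depth, with a log2 ratio of −0.11 ± 0.22. *Gja4* lies on chromosome 4 from 126988664 to 126991283 in mm9, and *Gjc1* on chromosome 11 from 102660792 to 102681000.

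Of 10 endothelial markers, 8 were lower in the mutant, with a median log2 ratio of −0.30, a range from −0.72 to 0.59 and a summed level of 251.0 FPKM in the control against 211.7 FPKM in the mutant. *Esam* and *Ly6c1* were lower and *Cdh5* higher by a fold change above 1.5. *Cldn5*, a tight junction gene of the blood-brain barrier, was at 64.1 and 43.7 FPKM. All 10 endothelial markers had a higher ratio than *Gja4*, but the wide margin of *Gja4* overlapped with those of 4 of them, so its place below the list was not resolved. The arterial endothelial connexin *Gja5* was under the filter, at 0.45 FPKM (0.30 to 0.60) and 0.31 FPKM (0.21 to 0.41), with overlapping intervals. Among 10 mural cell markers the median was 0.18 and the summed level 128.7 and 153.4 FPKM, with *Rgs5* lower and *Tagln* higher past the same fold change. *Tagln* was listed at 0 in the control and at 35.3 FPKM in the mutant. The higher mural sum in the mutant rests on *Tagln* alone, and without it the mutant sum is the lower one. *Gjc1* lay within this list, above 4 and below 6 of its genes, with overlapping margins for 5.

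**Figure D2:**
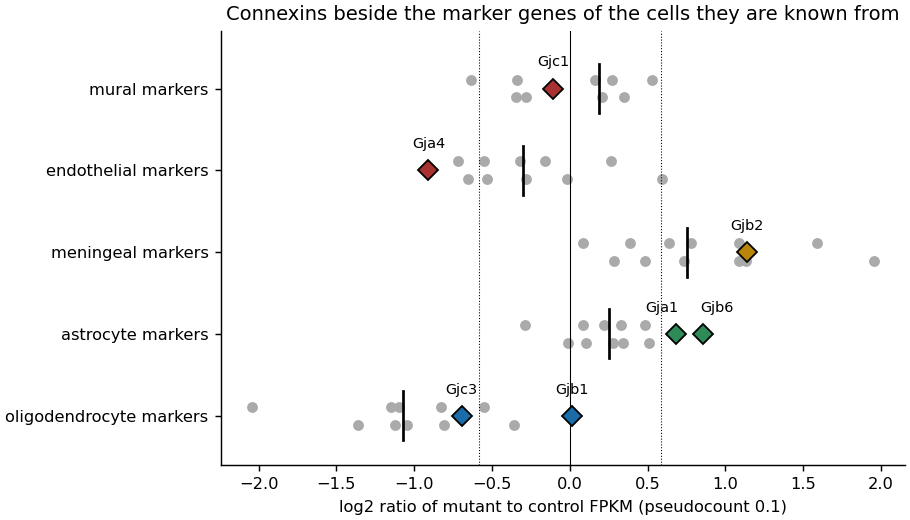
Log2 ratios of mutant to control FPKM, with the connexins as diamonds (coloured by cell type), the marker genes of the cells they are known from as grey points and the list median as a black bar. Dotted lines mark a fold change of 1.5, and *Tagln*, listed at 0 in the control, is left out of the points. *Gjb1* lies to the right of every OL marker, *Gja1* and *Gjb6* to the right of every astrocyte marker and *Gja4* to the left of every endothelial marker, with margins (not drawn) that overlap for 4 endothelial markers and 1 OL marker. The margin of *Gja1* is centred on a mutant FPKM above its own interval.

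Set against each other within a library, *Gjb1* and *Gjc3* lost weight to the astrocyte pair in the mutant. The summed FPKM of *Gjb1* and *Gjc3* was 126.4 in the control against 93.2 in the mutant, and that of *Gja1* and *Gjb6* was 286.4 and 470.4. The astrocyte pair exceeded the OL pair by 2.27 times in the control and by 5.05 times in the mutant, a difference of −1.16 ± 0.09 on the log2 scale. Most of the mutant astrocyte sum is *Gja1* at 381.1 FPKM, above its own interval of 353.3 to 361.7. The margin does not cover that gap. For *Gjb1* and *Gjb6*, known partners across OLs and astrocytes, the ratio of the first to the second differed by −0.84 ± 0.15. These ratios are the same under any scaling of the libraries.

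As shares of the summed FPKM of the 7 genes, which was 466.0 in the control against 663.2 in the mutant, *Gja1* took 50.9% and 57.5%. *Gjb6* took 10.6% and 13.5%, and *Gjb2* 8.82% and 13.7%. *Gjc3* took 18.9% and 8.18%, and *Gjb1* 8.27% and 5.88%. *Gja4* took 1.12% and 0.41%, and *Gjc1* 1.45% and 0.94%. The plot of shares shows the band of *Gjc3* narrowing most, while those of *Gja1*, *Gjb2* and *Gjb6* widen.

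**Figure D3:**
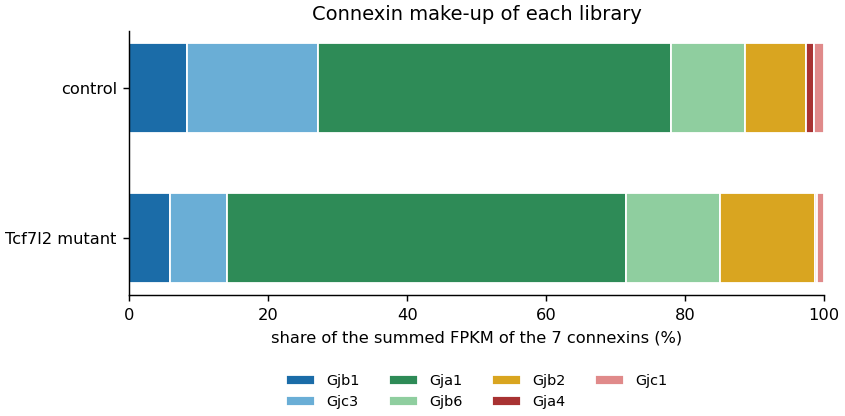
Share of the summed FPKM of the 7 connexins (percent, from 0 to 100) taken by each gene in the control and the *Tcf7l2* mutant library, 1 library each. *Gja1* widens from 50.9% to 57.5% and *Gjc3* narrows from 18.9% to 8.18%.

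Among connexins outside the 7, *Gje1* was at 1.56 FPKM (1.03 to 2.06) and 1.35 FPKM (0.93 to 1.66), with overlapping intervals. *Gjb5*, a neighbour of *Gja4* on chromosome 4 that is known mainly from skin, was under the filter at 0.60 and 0.78 FPKM, again with overlapping intervals. *Gjd4* was listed at 0 in both libraries and *Gja10* at 0 in the control.

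Lists of related genes were read in the same way. Of 10 tested genes of connexin partners and pannexins, 1 was higher and 1 lower by a fold change above 1.5, with a median log2 ratio of 0.12. Those were *Panx2*, at 0.96 and 1.77 FPKM, and *Panx1*, at 22.2 and 11.3 FPKM, which encode channel proteins of a separate family. The scaffold gene *Tjp1*, whose product ZO-1 binds Cx43, was at 42.2 FPKM in the control against 47.3 FPKM in the mutant (log2 ratio 0.16). Of 9 genes of glial potassium clearance and astrocyte coupling, 2 were higher and 1 lower past the fold change, with a median of 0.28. Among these, the chloride channel gene *Clcn2* was at 23.3 and 37.0 FPKM, and the cotransporter gene *Slc12a2* at 65.3 and 35.0 FPKM. The potassium channel gene *Kcnj10*, which astrocytes and OLs share, was at 112.0 and 110.9 FPKM.

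Markers of other cells that a nerve sample can hold also differed. The tested red blood cell genes stood for 4 separate measurements, as globin copies shared merged rows, and all 4 were higher by a fold change above 1.5 (median log2 ratio 1.23, summed level 163.0 and 403.2 FPKM), as were 4 of 6 tested neuronal genes (median 0.94, summed level 32.7 and 46.4 FPKM). Of 10 microglial markers, 7 were higher and 3 lower, 1 of them (*Fcrls*) past a fold change of 1.5, with a median of 0.24 and a summed level of 356.7 and 440.5 FPKM. The part of these in the connexin values was not tested.

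The scaling of the libraries sets the size of each log2 ratio but not the order of the 7. When all rows were rescaled to a sum of 1000000, the median of all tested genes moved to −0.61, and unnamed rows took 70.7% of the FPKM in the control against 80.7% in the mutant. Under that setting *Gja1* was at 0.01, *Gjb6* at 0.19 and *Gjb2* at 0.47, none past a fold change of 1.5, and *Gjb1* at −0.65. No member was then higher and 4 were lower by that fold change, beside 4.51% and 52.1% of all tested genes. The marker genes shift with the members, so higher and lower refer throughout to the deposited FPKM. Relative to the median of all genes under the same setting, *Gja1*, *Gjb6*, *Gjb2* and *Gjb1* stood at 0.62, 0.79, 1.07 and −0.04.

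**Figure D4:**
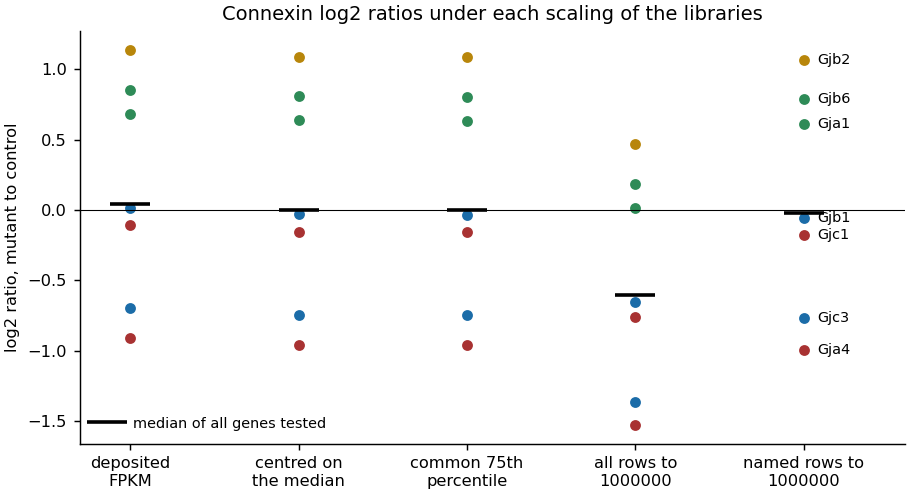
Log2 ratio of mutant to control for the 7 connexins under the deposited FPKM and 4 rescalings of the libraries, with the median of all 14199 tested genes as a black bar. The order of the 7 is the same in each column, and all fall together, with the median, when unnamed rows are counted in the sum of 1000000.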

How the data were processed

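RNA from P12 optic nerves of control and *Tcf7l2*ΔHMG mice (1 library each) had been sequenced by the authors, who aligned the reads with TopHat (default settings) and used Cufflinks to obtain FPKM. The submitters' processing notes list mm9, while software versions are not given in the sources used here. The deposited tables hold for each row the FPKM, the bounds of its Cufflinks interval and a status. Names merged in a row were split, and rows of a symbol were summed. Symbols in both tables, with status OK in each and 1 FPKM or more in either library, were tested (14199 of 23951). With 1 library per genotype there was no statistical test, and a fold change above 1.5, as in the study, was used to count genes. Depth was estimated by taking low interval bounds of unnamed rows shorter than 100 bases as whole fragments (within 0.01), with the smallest whole number for the lowest bound. Coordinates are 1-based. The members and gene lists were chosen with earlier results of these data known. Text names the 7 members, other connexins of at least 1 FPKM, members of the 2 related lists past a fold change of 1.5 or of high level, and up to 3 high genes of each marker list. Other genes named, such as connexins under 1 FPKM, *Cldn5*, *Kcnj10* and marker genes past the fold change, were chosen after their values were seen. Some genes that this rule names are not reported here. One listed red blood cell gene, *Hbb-bt*, had no row in both tables. Promoter windows were taken from RefSeq (GRCm38.p6). The counting was tested on simulated data. Alternatives were pseudocounts, scalings, filters, row handling and cutoffs. Python 3.11.15, numpy 2.4.6, pandas 2.3.3 and matplotlib 3.10.9 were used.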

Additional observations from a re-analysis of the deposited data

How the results depend on the processing

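Of 90 values recomputed under the alternatives, 75 stayed within the interval margin of a ratio or within 1.5 times of a count, and none of the 5 members past a fold change of 1.5 changed sign. Some of the 75 could not move. Each member had 1 unmerged row per library, so the choices of row handling returned the same values. The difference between *Gjb1* with *Gjc3* and *Gja1* with *Gjb6* uses no pseudocount and cancels any scaling. With all rows set to sum to 1000000, each member moved, to −0.65 for *Gjb1*, −1.36 for *Gjc3*, 0.013 for *Gja1*, 0.19 for *Gjb6*, 0.47 for *Gjb2*, −1.53 for *Gja4* and −0.76 for *Gjc1*, and left 0 members above and 4 below a fold change of 1.5 (4.51% and 52.1% of all tested genes). Rescaling named rows only gave −0.77 for *Gjc3* and 0.61 for *Gja1*. *Gja1*, whose margin is the narrowest, was at 0.64 after centring on the median and at 0.64 at a common 75th percentile. A fold change above 2 left 1 member higher (*Gjb2*) and 0 lower (6.87% and 3.68% of all tested genes). Requiring separate intervals as well kept the counts at 3 and 2 (13.6% and 7.42%). The difference of *Gjb1* and *Gjc3* against *Gja1* and *Gjb6* was therefore −1.16 under each planned scaling. Depth limits *Gja4* most, whose intervals reached 17.6% of their midpoint in the control and 18.7% in the mutant. No paired analysis was possible because each genotype had 1 library, and no library could be left out.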

Other observations

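Unnamed rows of the Cufflinks tables overlapped some connexin genes, and the fragments in them are not part of the gene's FPKM. At *Gjc3*, 8 unnamed rows covering 3828 bases overlapped the gene in the control and 8 covering 2816 bases in the mutant, with the highest at 559.6 FPKM on 105 bases in the control and 139.4 FPKM on 121 bases in the mutant. *Gjb6* had 2 such rows in the control, of up to 633.8 FPKM on 79 bases, and 1 in the mutant, of 220.9 FPKM on 157 bases. *Gjc1* had 1 in the control at 4.86 FPKM and none in the mutant. *Gjb1*, *Gja1*, *Gjb2* and *Gja4* had none in either library. FPKM on rows this short is not comparable with that of a whole transcript, and the part of these rows in the ratios of *Gjc3* and *Gjb6* was not tested. Among connexins under the filter, *Gjd2* was higher in the mutant and *Gja6* lower, with separate intervals. *Gjd2*, a connexin of neurons, was at 0.05 FPKM (0 to 0.11) in the control and 0.23 FPKM (0.15 to 0.32) in the mutant, and *Gja6* at 0.18 FPKM (0.07 to 0.29) and 0.03 FPKM (0 to 0.06). The control value of *Gjd2* and the mutant value of *Gja6* lay under the level of 3 fragments on 1000 bases.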
